A study of Mus musculus with 2 samples.

Results

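The genes described here are 9 components of cell junctions, *Cldn5*, *Cldn12*, *Ocln*, *Marveld2*, *F11r*, *Jam2*, *Esam*, *Tjp1* and *Pecam1*, chosen by name from the 32285 genes of the count matrices. All 9 were found in both matrices under these symbols. They were measured by single-cell RNA sequencing (scRNA-seq) in 2 libraries, replicates 1 and 2 of 1 condition, made from dissociated striatum of untreated adult C57 mice with no engineered allele named. The labels call the preparation enriched for glia, give the strain both as C57/Bl6J and as C57BL/6NTac, and give an age of 8 to 10 weeks, and the study's methods describe enzymatic dissociation, filtering and removal of debris. The study's methods state male mice, a slightly younger age range and a total number of mice, but not their division between libraries. The labels do not say how many mice went into each library, so p-values do not measure the spread between mice. They measure how far differences between classes varied between these 2 libraries. A shift shared by all classes of a library is taken up by the library term and is not part of that spread.

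Brain endothelial cells line the capillaries and are joined edge to edge by tight junctions, which seal the space between neighbouring cells and are a main part of the blood-brain barrier. Claudins and occludin are membrane proteins with 4 passes that form the strands of the tight junction, tricellulin (encoded by *Marveld2*) sits where 3 cells meet, and the junctional adhesion molecules are immunoglobulin-type proteins that bind their partners on the next cell. ZO-1, encoded by *Tjp1*, links the strands to the actin cytoskeleton from the inside. Pericytes and smooth muscle cells, together called mural cells, wrap the endothelium from outside.

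Library 1 held 6978 cell barcodes and library 2 held 5437, with medians of 3852 and 5375 unique molecular identifiers (UMIs, counted mRNA molecules) per barcode, and 9 barcodes occurred in both. After filtering, 12007 cells were grouped into 12 clusters without use of the 9 genes or of other junction genes. The clusters formed 9 classes that reached 20 cells per library, each named from marker genes and therefore called "-like". The endothelial-like class had 1403 cells (804 in library 1, 599 in library 2) and the mural-like class 553 (311 and 242). All 12 markers of the endothelial-like class, such as *Flt1* and *Slco1a4*, were raised in it, and none of these 12 was at 0 in any other class, where their summed level ranged from 47.7 to 924 CPM (a gene's UMIs scaled to a total of 1000000) outside vessels against 30217 and 31693 CPM in endothelial-like cells. Some of these markers, *Spock2* and *Slco1c1* among them, are also transcribed in other brain cells. The neuroblast-like class also held cycling cells, the mural-like class also carried markers of fibroblasts, and an erythroid-like cluster of 96 cells, 11 of them in library 2, was left out.

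The sequences upstream of 3 of the genes are shown because the genes contrast in where they were detected, *Cldn5* and *Ocln* chiefly in endothelial-like cells and *Cldn12* most in neuron-like and OPC-like cells. Each is the 250 bases before a transcription start in RefSeq (GRCm38.p6), with capitals marking the letters GGAA, the core bound by ETS factors, on either strand (TTCC where it is on the other strand).
*Cldn5*, chr16:18776597-18776846, plus strand: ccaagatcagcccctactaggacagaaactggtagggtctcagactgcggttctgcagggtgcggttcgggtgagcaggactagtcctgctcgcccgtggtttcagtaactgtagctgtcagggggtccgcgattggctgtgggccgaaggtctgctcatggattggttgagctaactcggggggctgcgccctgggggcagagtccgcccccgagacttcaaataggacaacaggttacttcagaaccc
*Ocln*, chr13:100552719-100552968, minus strand: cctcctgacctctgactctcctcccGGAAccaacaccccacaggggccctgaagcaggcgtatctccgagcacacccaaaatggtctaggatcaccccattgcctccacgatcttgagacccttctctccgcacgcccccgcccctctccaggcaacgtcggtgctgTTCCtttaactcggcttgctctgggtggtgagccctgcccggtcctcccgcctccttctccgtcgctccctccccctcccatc
*Cldn12*, chr5:5514977-5515226, minus strand: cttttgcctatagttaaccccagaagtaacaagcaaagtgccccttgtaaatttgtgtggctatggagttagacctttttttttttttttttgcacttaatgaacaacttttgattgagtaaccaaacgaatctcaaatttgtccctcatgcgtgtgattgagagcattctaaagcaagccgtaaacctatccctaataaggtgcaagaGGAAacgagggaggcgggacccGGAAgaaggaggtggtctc
RefSeq gives 2 starts for *Ocln* and 3 for *Cldn12*, and the window shown is the one that lies wholly outside the GENCODE gene. The *Cldn5* window held 0 matches, those shown for *Ocln* and *Cldn12* held 2 each, and 93.4% of the 32851 windows of this length in the table held at least 1. The GC content was 59.6% for *Cldn5*, 64% for *Ocln* and 42% for *Cldn12*, against a median of 52.4% over all windows. These values depended on the start: the other *Ocln* window held 1 match at 69.2% GC, and the other *Cldn12* windows held 7 and 8 matches at 58.8% and 65.2% GC. RefSeq windows were found for 6 of the 9 genes.

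Of the 9 genes, 8 were higher in endothelial-like cells than in the mean of the 8 other classes, which 26.5% of the 15256 genes tested also were. The exception was *Cldn12*. The 4 with the widest gap were *Cldn5*, *Ocln*, *Esam* and *Pecam1*, each more than 6 on the log2 scale, and *F11r*, *Marveld2*, *Jam2* and *Tjp1* lay between 2.68 and 3.72. The median log2 fold change of the 9 was 3.72, against −0.028 over all genes tested. Sums of counts per library and class were compared in edgeR (quasi-likelihood F-test, library as blocking term), and all adjusted p-values are by the Benjamini-Hochberg method over all genes of that fit, with 0.05 as threshold. The 9 genes passed the filter on low counts in this fit. Each mean of classes in the fit is a mean of log2 levels with equal weight per class. Classes with very low levels therefore widen the gap, which is not the ratio to the plain mean of the CPM values. The fold changes also use scaling factors of edgeR (TMM), which the CPM values do not. A fold change can therefore differ from a ratio of CPM values.

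**Figure D1:**
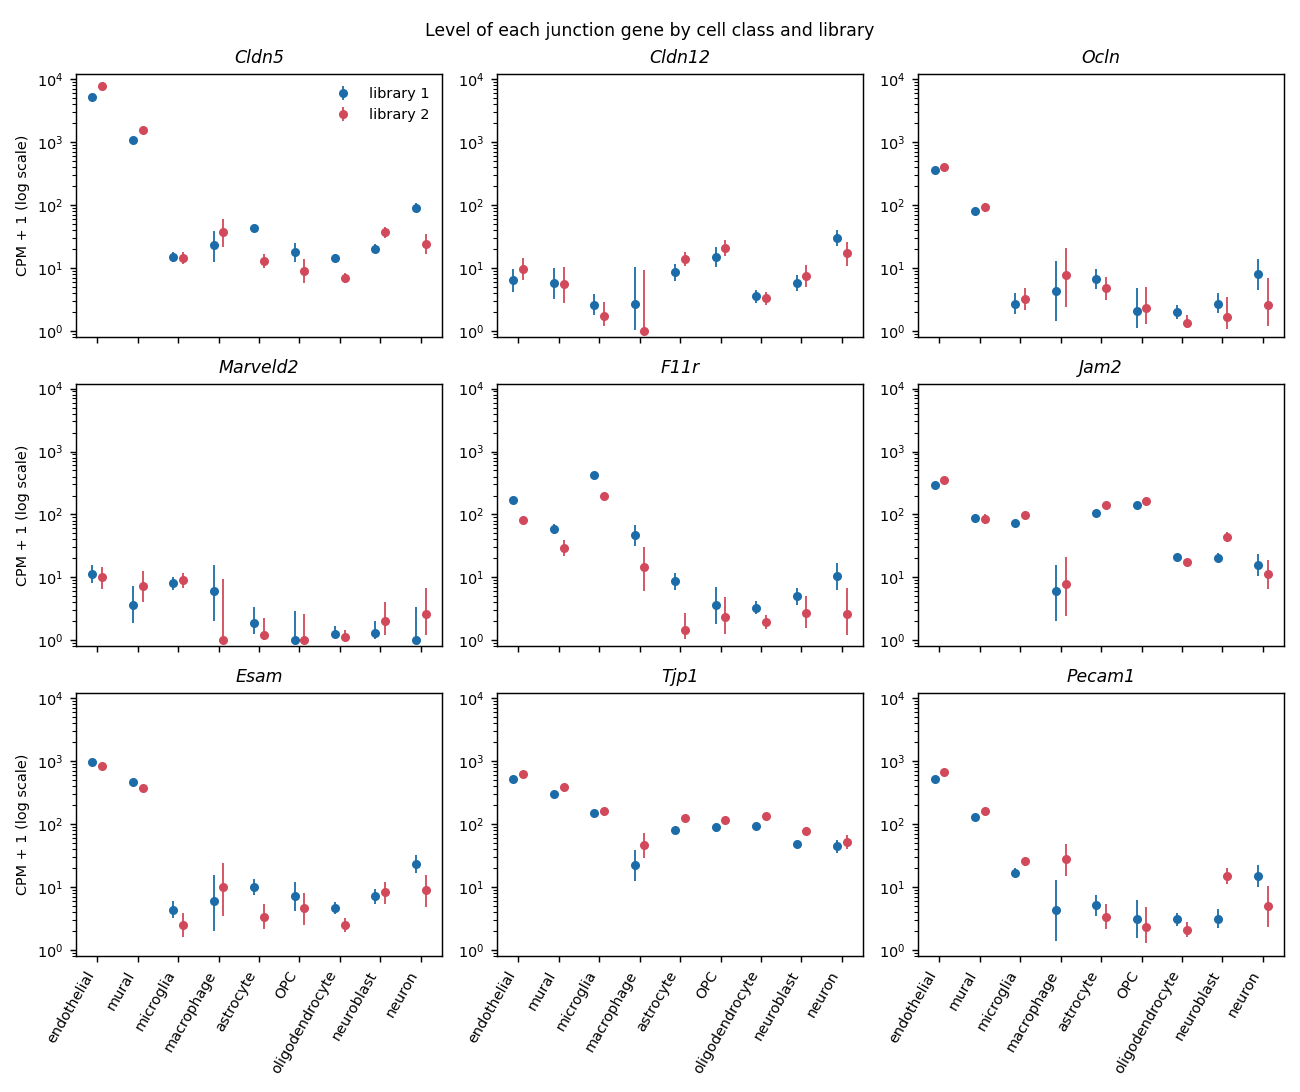
Level of each of the 9 junction genes (CPM + 1, log scale) in the 9 classes, "-like" being left out of the class names, with 1 point per library and bars giving the 95% Poisson interval, which covers counting error only. *Cldn5*, *Ocln*, *Esam* and *Pecam1* were highest in endothelial and then mural cells in both libraries, *F11r* was highest in microglia, and *Cldn12* in neurons of library 1 and in OPCs of library 2.

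Among the membrane proteins of the strand, *Cldn5* (chr16:18776847-18778262, plus strand, GRCm38), the main claudin of brain endothelium, stood at 5216 CPM in the endothelial-like class of library 1 and at 7654 CPM in that of library 2. Outside vessels its level ran from 5.99 CPM in oligodendrocyte-like cells of library 2 to 89 CPM in neuron-like cells of library 1. Mural-like cells, the nearest class, stood at 1065 and 1528 CPM. The log2 fold change over the mean of the other classes was 7.61 (SE 0.26, adjusted p = 1.9e-13). In each non-vascular class the ratio of *Cldn5* UMIs to the UMIs of the 12 endothelial markers was 0.0866 to 0.86 times that in endothelial-like cells. The lowest value was that of astrocyte-like cells of library 2, where *Slco1c1*, which is also transcribed in astrocytes, gave 1927 of the 2487 marker UMIs.

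*Ocln* (chr13:100496507-100552718, minus strand), which encodes occludin, was likewise highest in endothelial-like and then in mural-like cells. Its endothelial-like level was 356 CPM in library 1 and 393 CPM in library 2, and it was at no more than 7.05 CPM in any class outside vessels. The log2 fold change was 6.81 (SE 0.15, adjusted p = 2e-15). Below the vascular classes no neighbouring pair in the order of levels differed for *Ocln*, and the counts there were 25 UMIs or fewer per library and class.

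*Marveld2* (chr13:100595957-100616971, minus strand), the tricellulin gene, was sparse. Endothelial-like cells held 35 UMIs in library 1 and 22 in library 2, or 10.4 and 8.98 CPM. Microglia-like cells stood at 7.04 and 8.04 CPM, just below the endothelial-like counting interval in library 1 (7.25 to 14.5 CPM) and within it in library 2 (5.63 to 13.6 CPM). The difference between these classes was 0.05 on the log2 scale (SE 0.46, adjusted p = 0.95), and its direction was not resolved. The log2 fold change over the mean of the other classes was 3.61 (SE 0.48, adjusted p = 1.2e-05), a value that depends on how OPC-like cells with 0 UMIs enter the fit. Against those cells, pooled over both libraries and set at a floor of 3 counts, endothelial-like cells were at least 13.7-fold higher.

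*Cldn12* (chr5:5489537-5514958, minus strand), a claudin family member, was highest outside vessels. It stood at 5.35 and 8.57 CPM in endothelial-like cells, at 28.8 and 16.1 CPM in neuron-like cells and at 14 and 19.5 CPM in OPC-like cells. Its difference over the mean of the other classes, a mean of log2 levels, was 0.55 (SE 0.38, adjusted p = 0.26). In CPM averaged over the libraries, endothelial-like cells held rank 4 among the 9 classes, at 6.96 CPM. Endothelial-like cells were lower than neuron-like cells by a log2 fold change of −1.42 (SE 0.41, adjusted p = 0.007), and higher than microglia-like (2.16) and oligodendrocyte-like cells (1.15). Neuron-like and OPC-like cells did not differ beyond their spread (0.57, SE 0.38, adjusted p = 0.24). No class held more than 55 UMIs of *Cldn12* in a library.

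Among the immunoglobulin-type adhesion molecules, *Esam* (chr9:37528078-37538319, plus strand), an endothelial cell-selective adhesion molecule, stood at 951 and 834 CPM in endothelial-like and at 471 and 371 CPM in mural-like cells. No class outside vessels exceeded 22.4 CPM. The log2 fold change was 6.70 (SE 0.15, adjusted p = 2.7e-15). *Pecam1* (chr11:106654217-106750628, minus strand), also called CD31, an adhesion molecule of endothelial cell borders, stood at 527 and 663 CPM in endothelial-like cells. Its log2 fold change was 6.22 (SE 0.24, adjusted p = 7.5e-13). Microglia-like cells held 15.5 and 24.7 CPM of *Pecam1*, which per UMI of the endothelial markers was 8.55 and 17.1 times the endothelial ratio.

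*Jam2* (chr16:84774123-84825928, plus strand), which encodes JAM-B, was spread more widely. It stood at 288 and 346 CPM in endothelial-like, 140 and 161 CPM in OPC-like, 106 and 141 CPM in astrocyte-like and 72 and 97.9 CPM in microglia-like cells. Endothelial-like cells were above every other class, by 1.46 (SE 0.21, adjusted p = 1.9e-05) on the log2 scale over astrocyte-like cells, the nearest of them in the fit. OPC-like cells were above astrocyte-like cells in CPM in both libraries. In the fit these classes did not differ beyond their spread (0.06 higher in astrocyte-like cells, SE 0.22, adjusted p = 0.87). Nor did astrocyte-like and microglia-like cells (0.12, SE 0.21, adjusted p = 0.66). Macrophage-like cells had the lowest values, 5 and 6.78 CPM, from 3 UMIs in each library. In the fit neuron-like cells were not above them beyond the spread (0.70, SE 0.72, adjusted p = 0.45).

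*F11r* (chr1:171437535-171464603, plus strand), which encodes JAM-A, was highest outside the vessel wall. Microglia-like cells stood at 423 and 199 CPM and endothelial-like cells at 168 and 79.2 CPM, so within each library the microglial level was the higher. The endothelial-like level was 1.67 lower on the log2 scale (log2 fold change −1.67, SE 0.21, adjusted p = 4.4e-06). In both libraries the gap in CPM, which carries no TMM scaling, was narrower. The endothelial-like level was in turn above that of mural-like (1.66) and macrophage-like cells (1.93), and at most 9.61 CPM was found in the other 5 classes. *F11r* was also lower in library 2 than in library 1 in every class, by a log2 ratio of −1.09 in endothelial-like and −1.09 in microglia-like cells. Only 1.64% of 9098 genes had a lower ratio in endothelial-like cells and 0.833% of 10204 in microglia-like cells. What set the libraries apart for this gene was not tested.

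The scaffold gene *Tjp1* (chr7:65296165-65527781, minus strand) was found in every class. It stood at 527 and 617 CPM in endothelial-like, 300 and 389 in mural-like and 149 and 158 CPM in microglia-like cells. Oligodendrocyte-like cells stood at 93.6 and 132 CPM and astrocyte-like cells at 78.9 and 124 CPM. In the fit this order was separated at each step by its test. The log2 differences were 0.87, 0.68, 0.45 and 0.61, with adjusted p from 0.00044 to 0.02. For the last step the counting intervals in CPM overlapped in library 2 (127 to 138 and 114 to 135) but not in library 1. In both libraries that step was narrower in CPM, which carries no TMM scaling, than in the fit. The log2 fold change over the mean of the other classes was 2.68 (SE 0.10, adjusted p = 6.4e-13), the smallest among the 8 genes that were higher. Per UMI of the endothelial markers, *Tjp1* was 82.3 and 118 times the endothelial ratio in microglia-like cells.

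**Figure D2:**
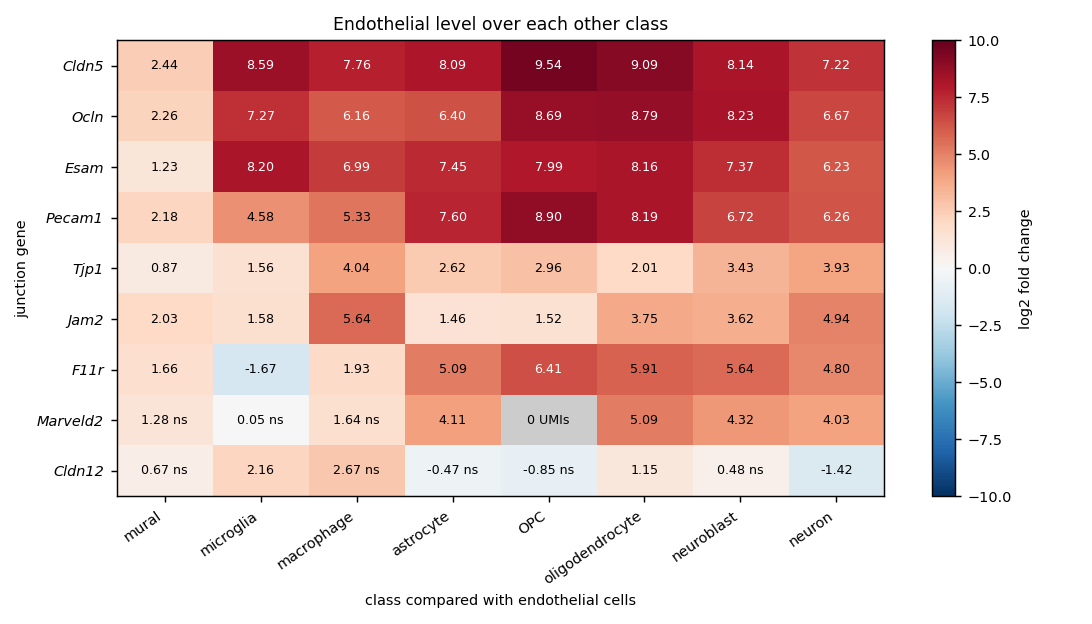
Log2 fold change of each junction gene in endothelial-like cells over each of the other 8 classes, from 1 edgeR fit, with red for higher and blue for lower in endothelial-like cells. The letters ns mark adjusted p of 0.05 or more, and the grey field marks a class with 0 UMIs of *Marveld2*. *Cldn5*, *Ocln*, *Esam*, *Pecam1*, *Tjp1* and *Jam2* were higher in all 8 comparisons.

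A stricter comparison was met by some of the genes. *Cldn5*, *Ocln*, *Esam*, *Pecam1*, *Tjp1* and *Jam2*, 6 of the 9 genes, exceeded all 8 other classes in the endothelial-like one. In a single such comparison the share of all genes called higher was 15% over mural-like, 17.6% over macrophage-like, 21.3% over microglia-like, 24.1% over oligodendrocyte-like, 27.8% over neuroblast-like, 28.4% over OPC-like, 30.4% over astrocyte-like and 33.2% over neuron-like cells. The share of all genes higher in all 8 comparisons was not computed, and it cannot exceed 15%. *F11r* missed this because of microglia-like cells alone, over which 25% of all genes were called lower, *Marveld2* because of microglia-like, macrophage-like and mural-like cells. *Cldn12* was called higher than in 2 classes and lower than in 1, the neuron-like class, over which 26.8% of all genes were called lower.

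In single cells, the genes were seen together. With each cell thinned to 1000 UMIs, shallower cells being left out (194 and 116 endothelial-like cells of libraries 1 and 2), 65.1% and 70.2% of endothelial-like cells had UMIs of 3 or more of the 9 genes, with a mean of 3.01 and 3.17 genes per cell. At most 0.62% of cells in any class outside vessels did so. In mural-like cells the share was 6.06% and 12.4%. *Cldn5* was detected in 94.9% (95% exact binomial interval 92.9 to 96.5) of the endothelial-like class in library 1 and 98.6% (97 to 99.4) in library 2. In microglia-like cells, taken as a class that should lack endothelial RNA, it was detected in 2.55% and 0.827%. Microglia-like cells held *Cldn5* at 13.9 and 13.3 CPM, where classes outside vessels ran from 5.99 to 89 CPM. Their share is therefore not an upper limit for free RNA in other classes. *F11r* was detected in 34.3% and 17.1% of microglia-like cells against 14.6% and 6.21% in the endothelial-like class, where *Marveld2* was detected in 1.97% and 1.04%. Without thinning, *Cldn5* was detected in 91.2% and 96.7% of endothelial-like cells (median 2682.5 and 3245 UMIs) and in 8.14% and 5.87% of microglia-like cells (median 6929 and 5504 UMIs).

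**Figure D3:**
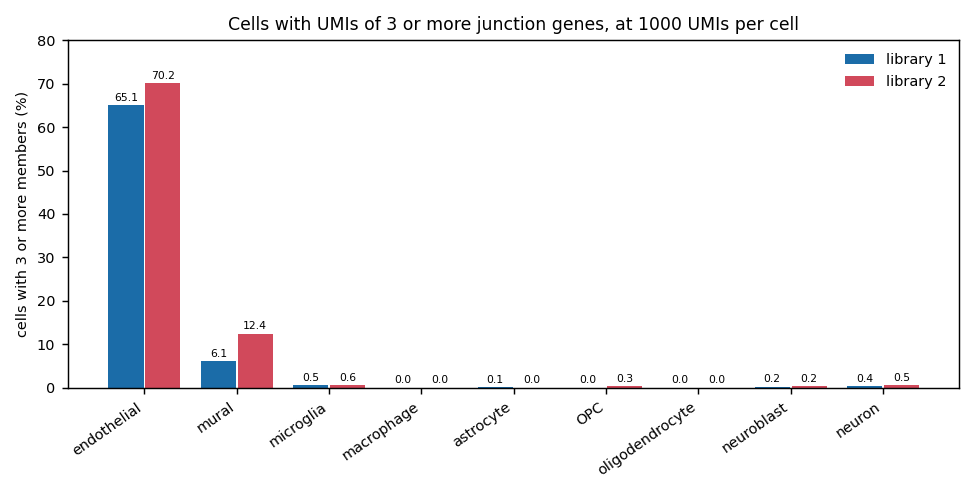
Share of cells with UMIs of 3 or more of the 9 junction genes, in percent, by class ("-like" left out) and library, each cell thinned to 1000 UMIs. Endothelial cells stood at 65.1% and 70.2%, mural cells at 6.06% and 12.4%, and no other class exceeded 0.62%.

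Within the mural-like class 1 subcluster held nearly all UMIs of some of the genes and a smaller share of others. Against the mean of the 7 classes outside vessels, 8 of the 9 genes were higher in mural-like cells, as were 24.3% of all genes. However, 64 of the 553 mural-like cells (29 and 35 per library, median 15721 UMIs) formed subcluster 3. Its leading genes included the endothelial genes *Cldn5*, *Ly6a* and *Ly6c1* and the erythroid genes *Hbb-bs* and *Hba-a1*. This subcluster stood at 3452 and 4370 CPM of *Cldn5*. It held 97% and 98.2% of the *Cldn5* UMIs and 98% and 93% of the *Ocln* UMIs of the mural-like class, against 50.5% and 60% of the *Esam* UMIs and 49.4% and 57.3% of the *Tjp1* UMIs. These cells held *Hbb-bs* at 6726 CPM in library 1 and at 3.73 CPM in library 2. Scrublet had not marked them as doublets. Their origin was not tested.

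Without these 64 cells, a setting added after seeing the data, *Cldn5* stood at 45.6 and 42.9 CPM in mural-like cells in place of 1065 and 1528. *Pecam1* stood at 3.04 and 11.7 CPM in place of 127 and 161, and *Ocln* at 2.28 and 9.75 in place of 79.4 and 91.6. *Jam2* stood at 16.7 and 13.6 CPM in place of 85.3 and 83.2. *Esam* and *Tjp1* moved less, *Esam* at 332 and 226 CPM in place of 471 and 371, *Tjp1* at 217 and 252 in place of 300 and 389. *F11r* stood at 38.8 and 22.4 CPM in place of 58.1 and 28.2. In that fit 3 of the 9 genes were higher in mural-like cells than in the mean outside vessels, *Esam* (5.69, SE 0.19, adjusted p = 1.4e-13), *F11r* (1.90, SE 0.29, adjusted p = 5.9e-05) and *Tjp1* (1.56, SE 0.12, adjusted p = 2.1e-08), where 20.4% of 15282 genes were. *Jam2* was lower (−1.22, SE 0.32, adjusted p = 0.006), as were 16.2% of all genes. *Cldn5* was at 1.04 (SE 0.45, adjusted p = 0.082), *Ocln* at 1.31 (SE 0.60, adjusted p = 0.10) and *Pecam1* at 0.29 (SE 0.79, adjusted p = 0.86) on the log2 scale. The call for *F11r* is against a mean of log2 levels, which classes with very low levels pull down. In CPM its mural-like level was below that of microglia-like cells (423 and 199 CPM). It was also below that of macrophage-like cells in library 1 (46.7 CPM), but not in library 2 (13.6 CPM).

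The mural-like class held a pericyte-like and a smooth muscle-like subcluster, with 151 and 112 cells. Its largest subcluster, of 176 shallow cells (median 1151.5 UMIs), was given no name. The leading genes there included the astrocyte marker *Slc1a2* and the oligodendrocyte marker *Mbp*. It held *Cldn5* at 185 and 79.6 CPM, against 35.4 and 89.5 CPM in pericyte-like cells, and is part of the mural-like values without subcluster 3. Tests between vascular subclusters were run in a fit of 8 sums and 8024 genes, in which 7 of the 9 genes passed the filter on low counts and *Cldn12* and *Marveld2* did not. *Esam* stood at 657 and 415 CPM in pericyte-like and at 221 and 161 CPM in smooth muscle-like cells, and *Tjp1* at 411 and 483 against 99.8 and 119 CPM. In each library the pericyte-like value was the larger for both genes. Both genes were higher in pericyte-like cells, *Tjp1* by 1.71 (SE 0.19, adjusted p = 4.8e-10) and *Esam* by 1.17 (SE 0.17, adjusted p = 3.9e-07) on the log2 scale. *Cldn5* also passed, at 0.95 (SE 0.36, adjusted p = 0.045), but rested on 25 UMIs or fewer per library, and within library 1 it did not differ in that direction (−0.04). This call was lost under 5 alternatives, with adjusted p of 0.096 without the replicate block, 0.14 with DESeq2 and 0.050 to 0.98 over the 5. The count was thus 3 of 7 genes, where 12.3% of all genes were higher. *Pecam1* was at 2.73 and 25.1 CPM in pericyte-like cells and *Jam2* at 5.45 and 0 CPM. The 50 cells of mural-like subcluster 4, led by the fibroblast genes *Dcn* and *Col1a1*, held 0 UMIs of *Esam* in both libraries and *Tjp1* at 234 and 322 CPM.

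**Figure D4:**
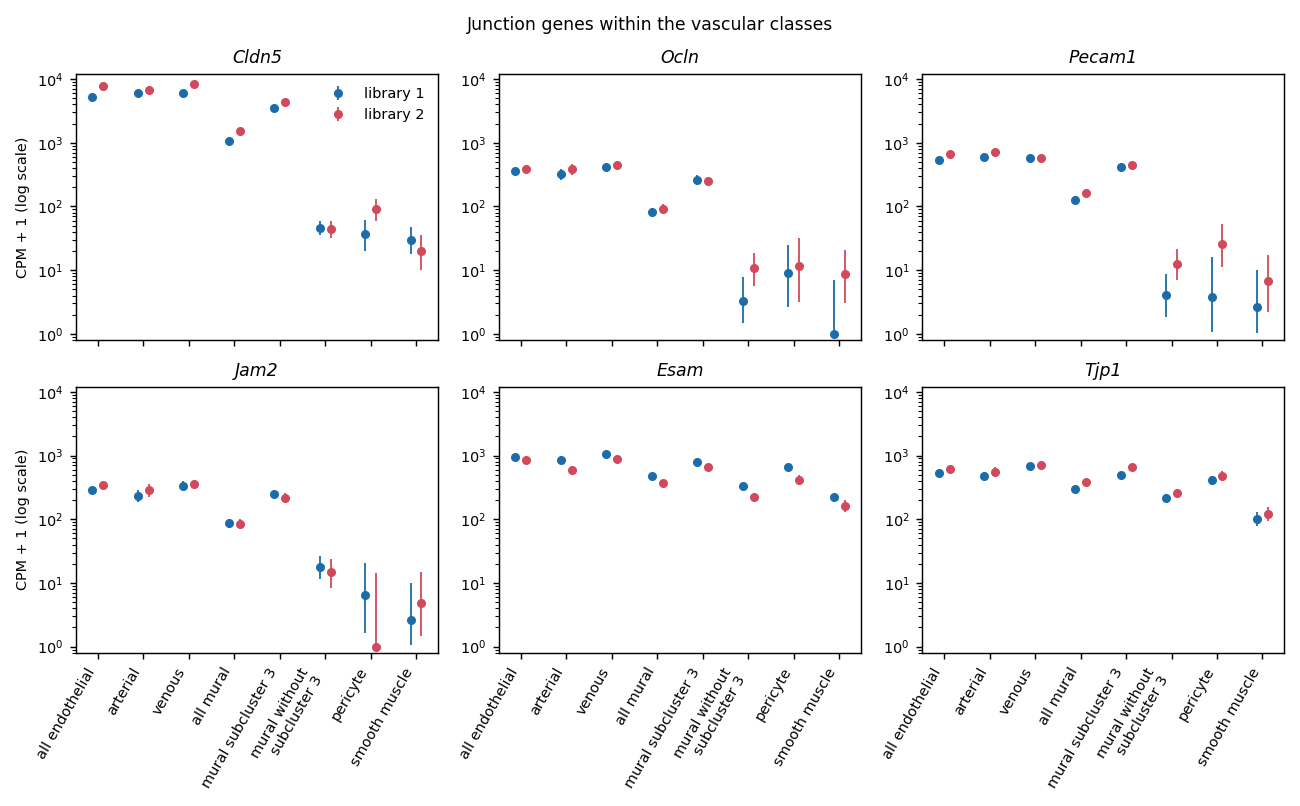
Level of 6 junction genes (CPM + 1, log scale) in vascular groups, "-like" being left out, with 1 point per library and 95% Poisson bars for counting error only. Leaving out mural subcluster 3 took *Cldn5* from 1065 and 1528 to 45.6 and 42.9 CPM, while *Esam* and *Tjp1* remained at 226 CPM or more and 217 CPM or more.

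Endothelial-like cells were divided further into an arterial-like subcluster (86 cells), a venous-like subcluster (122 cells) and larger ones. *Esam* stood at 865 and 593 CPM in arterial-like and at 1062 and 876 CPM in venous-like cells, *Tjp1* at 477 and 555 against 685 and 717 CPM, and *Jam2* at 230 and 287 against 336 and 351 CPM. In each library the arterial-like value was the smaller for these 3 genes. None of the 7 genes tested was called with edgeR (0 of 7, against 7.8% of all genes in either direction) or with DESeq2, and 3 had an unadjusted p under 0.05: *Esam* (−0.44, SE 0.15, adjusted p = 0.058), *Tjp1* (−0.46, SE 0.15, adjusted p = 0.058) and *Jam2* (−0.43, SE 0.20, adjusted p = 0.25). *Cldn5* was at 5990 and 6827 CPM in arterial-like and at 6089 and 8222 CPM in venous-like cells (−0.16, SE 0.13, adjusted p = 0.63). The venous-like subcluster was led in part by the microglial genes *Cx3cr1* and *C1qa*, with *C1qa* at 359 and 249 CPM against 33.7 and 11.3 CPM in arterial-like cells. In a finer division, in which 15 cells led by microglial genes stood apart from 115 venous-like cells, *Tjp1* was called lower in arterial-like cells (−0.59, adjusted p = 0.011), as it was under 3 other alternatives. All of these regrouped the cells, so they are not repeats of the same comparison.

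In the largest endothelial-like subcluster (678 cells) all 10 capillary markers exceeded their level in the other endothelial-like cells, by at most 2.4-fold. It was given no name, since 2 of the 10 were raised 2-fold and at least 3 were needed. It held *Cldn5* at 5309 and 7798 CPM, *Ocln* at 386 and 388 CPM, *Jam2* at 314 and 361 CPM and *Tjp1* at 548 and 602 CPM. These values lay within or near the ranges of the arterial-like and venous-like cells. The same 678 cells held the erythroid gene *Hbb-bs* at 5800 CPM in library 1 and 141.5 CPM in library 2. A subcluster of 505 shallow cells (median 867 UMIs) held *Cldn5* at 3761 and 6382 CPM and *Ocln* at 247 and 307 CPM. Its leading genes, such as *Gpr17*, *Npy* and *S100a9*, were not among the endothelial markers.

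Ependymal-like cells, which line the ventricles, and fibroblast-like cells were separated at a finer clustering only, with 149 and 56 cells, and are described with no test. *Ocln* stood at 18.5 and 18.3 CPM in ependymal-like cells, above its level in every class outside vessels, where at most 7.05 CPM was found. In the main clustering the ependymal-like cells lay within those classes. Astrocyte-like cells held *Ocln* at 5.7 and 3.71 CPM there and at 3.76 and 1.42 CPM in the finer clustering. *Tjp1* was at 229 and 310 CPM in fibroblast-like cells, which held 0 UMIs of *Esam*.

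The other junction genes came from a list of 79, of which 76 were in the matrices and 55 passed the filter in the class fit. In endothelial-like cells 33 of the 55 were higher than in the mean of the other classes and 9 were lower, against 26.5% and 19.2% of all genes, and 13 did not pass the test. Their median log2 fold change was 1.27. Among adherens junction genes, 8 of 13 were higher and 3 lower, with *Cdh5* (7.03, SE 0.22), which encodes the endothelial VE-cadherin, *Ptprb* (7.0), a receptor phosphatase that acts on it, and *Afdn* (2.67), an actin-linked scaffold, against *Ctnna2* (−2.50) and *Nectin1* (−1.89). Of the scaffolds, 11 of 18 were higher and 2 lower, with *Cgnl1* (6.59), *Amot* (3.08) and *Magi3* (2.57) at 1 end and *Magi2* (−2.01) and *Pard6g* (−0.84) at the other.

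Of the tricellular and MARVEL-family genes all 3 tested were higher: *Lsr* (6.76, SE 0.15), a tricellular junction receptor, *Ildr2* (2.07) and *Marveld1* (0.82). Of 5 other claudin genes 1 was higher, *Cldn34c1* (1.16), and 2 were lower, *Cldn10* (−1.27), which led the astrocyte-like cluster, and *Cldnd1* (−0.36). Of 6 genes related to the junctional adhesion molecules, *Igsf5* (6.71) and *Vsig2* (5.40) were higher and *Igsf11* (−1.73) and *Jam3* (−1.37) lower. Of 10 adhesion and receptor genes of endothelial borders 8 were higher and 0 lower, with *Tek* (7.13), the angiopoietin receptor, *Icam2* (6.99) and *Emcn* (6.95) in front. All of these had an adjusted p under the threshold and the same sign in both libraries. In mural-like cells without subcluster 3, 26 of the 55 genes were higher than in the mean outside vessels and 7 lower, against 20.4% and 16.2% of all genes, with *Cgnl1* at 5.01 (SE 0.30) and *Jam3*, which encodes JAM-C, at 1.69 (SE 0.18) on the log2 scale. *Emcn* (4.38), *Cdh5* (2.46) and *Tek* (2.04) were also still higher there. *Ptprb* (1.01, adjusted p = 0.27) and *Icam2* (0.68, adjusted p = 0.64) did not pass the test.

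The genes most alike in level over the 18 class and library sums, by Pearson's r of log2(CPM + 1) among 13255 genes, were named for each of the 9. These sums share 2 libraries and their free RNA, so r is a description. *Cldn5* was most like *Flt1* (r = 0.991), *Abcb1a* (0.991), the efflux transporter of brain endothelium, and *Cyyr1* (0.990). *Ocln* was most like *Slc16a4* (0.987), *Srarp* (0.985) and *Slc19a3* (0.984), *Esam* like *Tinagl1* (0.989), *Cldn5* (0.988) and *Ly6c1* (0.988), and *Pecam1* like *Icam2* (0.967), *Eng* (0.965) and *Ly6a* (0.953). *F11r* was most like *Anxa3* (0.953), *Lgals9* (0.947) and *Slco2b1* (0.942). *Cldn12* was most like *Adgrl3* (0.956), *Me3* (0.949) and *Syn2* (0.940), a synaptic vesicle gene. The nearest genes to *Marveld2* were *Cmtm8* (0.928), *Psma8* (0.905) and *A930033H14Rik* (0.902), those to *Tjp1* were *Thsd1* (0.915), *Kcp* (0.885) and *Slc52a2* (0.885), and those to *Jam2* were *Mettl18* (0.911), *Xpnpep1* (0.863) and *Pias3* (0.860).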

How the data were processed

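Both scRNA-seq libraries were made on the 10x Genomics platform. The authors counted UMIs per gene and barcode with Cell Ranger on mm10, and the deposited counts carry no normalization. The file header, the labels and the paper's methods name different Cell Ranger versions. The 9 genes and the gene lists were chosen with earlier results of these data known.

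Cells with at least 300 detected genes were kept, and Scrublet in scanpy 1.11.5 removed 96 and 159 doublets (1.39% and 2.96%). Integration (canonical correlation analysis) and clustering on 30 components at resolution 0.08 were run in Seurat 5.3.0, with 88 junction genes left out. A cluster was named when at least 3 markers of a class were raised 2-fold (10 CPM added) and at least 1 was among its 50 leading genes. Endothelial-like and mural-like cells were clustered again. The study's own cell annotation was not used here, so a difference from it can come from the rebuilt classes.

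UMI counts were summed per library and class, and tested with edgeR 4.0.16 (TMM, filterByExpr, quasi-likelihood, library as block) in R 4.3.3. The block follows from the design, since all classes of a library come from 1 suspension. The class fit had 18 sums and the subtype fit 8. The SE of a log2 fold change is its size divided by the square root of the F statistic of its test. It is a rough value where the change is near 0. Intervals and floors (3 counts) cover counting error only. Both fits were also run on simulated data. These had no library effect and no class differences except in genes changed on purpose, unlike the real sums, so they are not used as support. The alternatives were DESeq2 1.42.0, library sizes alone, no filter, no block, doublets kept, at least 500 genes, under 20% mitochondrial UMIs, other cells with UMIs of at least 2 endothelial markers left out, the junction genes kept in the clustering, resolution 0.32 or finer subclusters, each library alone, and, added after seeing the data, the mural-like subcluster 3 left out.

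Named beside the 9 genes are, per list of junction genes, up to 3 with the largest rises and 2 with the largest falls past the threshold with the same sign in both libraries, *Cdh5*, and per gene the 3 of highest correlation. *Jam3* and the mural values of *Cgnl1*, *Emcn*, *Cdh5*, *Tek*, *Ptprb* and *Icam2* were chosen for the mural comparison after their values were seen. Gene positions are from GENCODE M21 on GRCm38. The genes lie apart from other coding genes, but *Tjp1* and *Jam2* overlap small transcripts on their own strand.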

Additional observations from a re-analysis of the deposited data

How the results depend on the processing

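The counts of genes higher in endothelial-like cells than in the mean of the other classes (8), higher than in each class (6), and called between pericyte-like and smooth muscle-like cells (3) stayed within 1.5 times under the alternatives with a test. That limit is wide for the last count, which includes *Cldn5*, whose call was lost under 5 of these alternatives. The 8 genes higher in mural-like cells (24.3% of all genes) fell to 3 without subcluster 3 (20.4% of all genes). They also fell to 3 with other cells that held endothelial markers left out, a setting in which the share of all genes was not computed. Both settings leave out cells picked for their endothelial RNA. Lower levels of endothelial genes in the remaining mural-like cells follow in part from that choice, so the 2 settings are not separate support. *Jam2* then turned to −1.22 without subcluster 3 and to −2.55 with the marker-bearing cells left out, and *Pecam1* to −0.81 in the latter. That filter removed 34.7% of the mural-like cells themselves, 41.2% of macrophage-like, 34.1% of OPC-like, 28.7% of neuron-like and 28.2% of astrocyte-like cells, and 8.87% to 13.9% of the other classes outside vessels.

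Between arterial-like and venous-like cells, 0 genes were called in the fit reported, 1 with at least 500 detected genes, 1 with the junction genes kept in the clustering, 1 with finer subclusters (in each case *Tjp1*) and 2 (*Tjp1* and *Esam*) with cells of 20% or more mitochondrial UMIs left out. The share of all genes called was 7.8% in the fit reported and was not computed for these alternatives. The cells compared also changed, from 86 arterial-like and 122 venous-like cells to 167 and 152 with the mitochondrial limit. With the junction genes kept they were 163 and 98, and there the junction genes could take part in forming the groups. With doublets kept, *Marveld2* in endothelial-like against microglia-like cells was −0.016 in place of 0.051. With each library left out in turn there was no test, and *Cldn5* in pericyte-like against smooth muscle-like cells ranged from −0.044 to 1.81. Leaving out the replicate block changed 1 call among those recomputed for the 9 genes, that of *Cldn5* in this comparison (0.99, adjusted p = 0.096). The cause of these changes was not tested.

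Shares of endothelial-like cells with a UMI depended on depth. At 2000 UMIs per cell the mean of the libraries was 99.8% for *Cldn5*, 1.67% for *Cldn12*, 52% for *Ocln*, 63.2% for *Tjp1*, 69.9% for *Pecam1*, 81.2% for *Esam*, 22.3% for *F11r* and 49% for *Jam2*. The libraries differed for *Cldn12* (0.877% and 2.47%, from 4 and 10 cells) and *F11r* (29.6% and 15.1%). Without thinning it was 93.9%, 2.73%, 58%, 64.1%, 71.8%, 76.9%, 31.3% and 55.1% in the same order, and 3.74% for *Marveld2*. With 2 libraries, and few UMIs of *Cldn12* and *Marveld2*, small differences of these genes were not detectable at this depth.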
